A study of Mus musculus with 6 samples.

Results

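The ionotropic glutamate receptors of the AMPA and NMDA classes were examined by 10 of their subunit genes, namely Gria1 to Gria4 for AMPA receptors and Grin1, Grin2a, Grin2b, Grin2c, Grin2d and Grin3a for NMDA receptors. The members were all probe sets annotated with one of these symbols alone, which gave 11 probe sets for 8 genes, out of 22690 probe sets and 12394 named genes on the array. Grin1 and Grin3a had no such probe set and are not analysed here. The tissue was cochlear nucleus of mice at postnatal day 21, taken after the sodium channel blocker tetrodotoxin had been delivered into 1 cochlea by osmotic pump for 24 h to silence the auditory nerve. The ipsilateral group was the nucleus on the infused side and the contralateral group the nucleus on the opposite side, each with 3 Affymetrix arrays, and each array measured total RNA of a pool from 10 to 12 mice. The labels name no strain or sex. Every animal received the toxin and the pump on one side, so neither group came from an untreated mouse.

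Fast excitation in the brain runs through AMPA receptors, which open within a fraction of a millisecond of glutamate binding, and NMDA receptors, which also need glycine or D-serine and relief of magnesium block and which let calcium in. Auditory nerve fibres release glutamate onto the principal cells of the cochlear nucleus, and in rodents the AMPA receptors at those synapses are known for fast gating and for the subunits GluA3 and GluA4. AMPA receptors without the edited GluA2 subunit are permeable to calcium. NMDA receptors join the obligatory GluN1 subunit, the product of Grin1, with GluN2 or GluN3 subunits that set their kinetics and magnesium sensitivity.

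In these data no tested subunit differed between the sides by more than the spread between arrays. Of the 11 probe sets, 7 for 5 genes (Gria1, Gria2, Gria3, Gria4 and Grin2c) had a mean log2 value above 4 over the 6 arrays and were tested. With limma, 0 of the 7 passed a Benjamini-Hochberg adjusted p of 0.05, beside 0% of all 15298 probe sets tested, and each had an adjusted p of 1.00. At an unadjusted limma p under 0.05 there were also 0 of 7, beside 2.38% of all probe sets tested. With the replicate number as a block the count at an unadjusted p under 0.05 was 0 of 7 again, beside 3.72%, and a plain equal-variance test gave 0 by either criterion. The arrays of the 2 sides overlapped for 7 of 7 probe sets, whereas 6.26% of all tested probe sets had sides that did not overlap. The sign of the difference was the same in 3 of 3 replicate numbers for 0 of the 7, beside 23.7% of all tested probe sets. Since the tissue was measured in bulk, fewer cells of a type and less RNA per cell cannot be told apart, and changes in opposite directions in different cell types would not be seen.

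**Figure D1:**
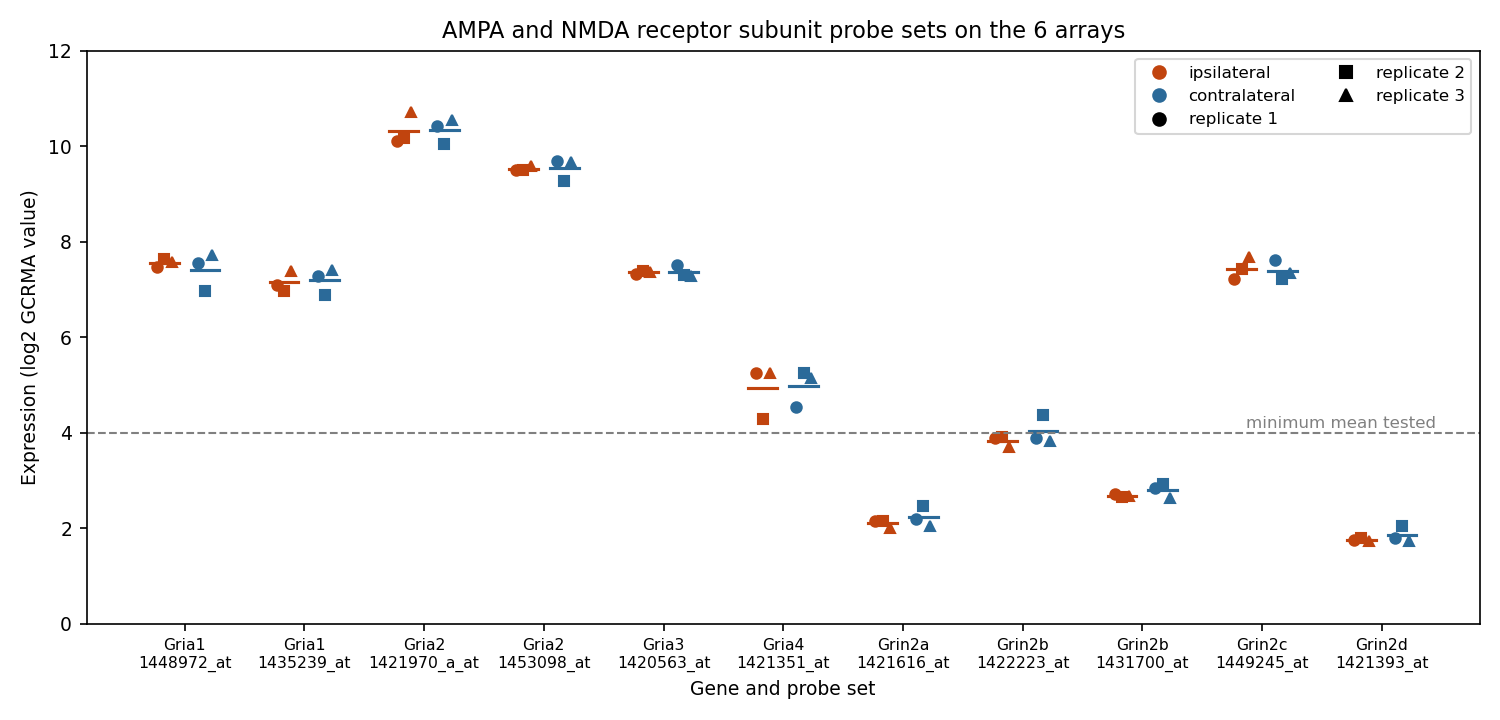
Log2 GCRMA value (vertical axis) of each of the 11 subunit probe sets on the 6 arrays, ipsilateral left of contralateral, with marker shape for the replicate number and a bar for the mean of the 3 arrays. The sides overlap for every probe set, and the probe sets of Grin2a, Grin2b and Grin2d lie below the dashed line at the minimum mean of 4.

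Gria2 encodes GluA2, the subunit whose edited pore residue keeps calcium out of AMPA receptors. Its brighter probe set (1421970_a_at) measured 10.10, 10.17 and 10.72 on ipsilateral arrays 1 to 3, against 10.43, 10.04 and 10.56 on contralateral arrays 1 to 3 (log2). The highest array was thus on the infused side and the lowest on the other, and both ranges covered nearly the same span. The means were 10.33 ± 0.34 and 10.34 ± 0.27 (ipsilateral and contralateral, SD, n = 3 each), a difference of -0.015 (SE 0.21, limma, adjusted p = 1.00). The 95% interval of that difference, as a fold, ran from 0.705 to 1.39.

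A second Gria2 probe set (1453098_at) gave a narrower interval. It measured 9.51, 9.51 and 9.58 ipsilaterally, against 9.68, 9.28 and 9.66 contralaterally. The 3 ipsilateral arrays lay inside the contralateral range, and the difference was -0.0080 (SE 0.13), with an interval from 0.804-fold to 1.23-fold. The 2 probe sets of this gene differed from each other by 0.59 to 1.14 within an array, far more than the sides did. Signals of different probe sets depend on how well the probes bind, so the signals given here do not rank the subunits by abundance.

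Gria1 encodes GluA1, a subunit whose phosphorylated tail regulates the insertion of AMPA receptors at synapses. Its brighter probe set (1448972_at) measured 7.47, 7.64 and 7.57 ipsilaterally, against 7.55, 6.97 and 7.73 contralaterally. Contralateral array 2 stood alone at the low end, and the other 5 arrays lay within a narrow band. At 0.14 (SE 0.19, interval from 0.802-fold to 1.52-fold) this was the largest mean difference among the 7, and it turned to -0.077 without contralateral array 2. The other Gria1 probe set (1435239_at) measured 7.10, 6.97 and 7.39 ipsilaterally, against 7.29, 6.89 and 7.41 contralaterally. It differed by -0.041 (SE 0.17), in the opposite direction to the first.

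Gria3, the gene of GluA3, was the steadiest of the tested members. It measured 7.32, 7.40 and 7.37 on the ipsilateral arrays, against 7.51, 7.30 and 7.29 on the contralateral arrays. The ipsilateral values lay within the contralateral ones, and their means were 7.36 ± 0.04 and 7.37 ± 0.13 (ipsilateral and contralateral, SD, n = 3 each). The difference was -0.0059 (SE 0.099), and its interval, from 0.846-fold to 1.17-fold, was the narrowest of the 7 probe sets.

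Gria4 encodes GluA4, the subunit linked to the fastest AMPA receptor kinetics. Its only probe set (1421351_at) was dim, at 5.26, 4.29 and 5.25 ipsilaterally, against 4.54, 5.26 and 5.15 contralaterally. On each side 1 array was low, ipsilateral array 2 and contralateral array 1, while the other 4 arrays lay close together. The mean difference was -0.048 (SE 0.31, interval from 0.581-fold to 1.61-fold). The difference was 0.72 in replicate 1, -0.97 in replicate 2 and 0.10 in replicate 3. Leaving out replicate 2 of both sides gave 0.41. The interval above holds the differences compatible with these arrays and is not a limit of detection.

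Of the NMDA receptor genes only Grin2c was bright enough to test. It encodes GluN2C, a subunit that weakens magnesium block and is typical of cerebellar granule cells. Grin2c measured 7.21, 7.43 and 7.67 ipsilaterally, against 7.61, 7.22 and 7.35 contralaterally. Each side held 1 of the 2 lowest arrays, and the means were 7.44 ± 0.23 and 7.39 ± 0.20 (ipsilateral and contralateral, SD, n = 3 each). The difference was 0.045 (SE 0.16, interval from 0.799-fold to 1.33-fold). Within replicate numbers it was -0.39, 0.21 and 0.32.

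**Figure D2:**
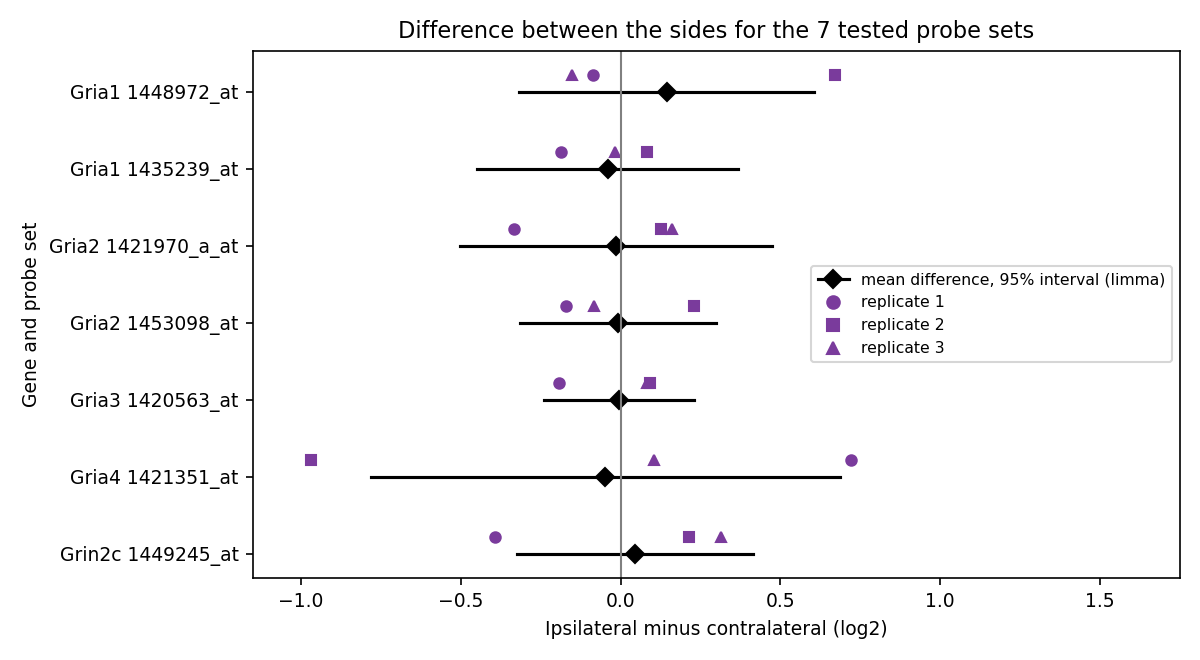
Ipsilateral minus contralateral log2 difference of the 7 tested probe sets, with the mean and its 95% limma interval in black and the differences within replicate numbers 1, 2 and 3 in purple. Every interval crosses 0, and no probe set has its 3 replicate differences on one side of 0.

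The remaining NMDA receptor probe sets had means at or below the minimum and carry little information about these subunits. Grin2a, whose product GluN2A replaces much of GluN2B as forebrain and brainstem synapses mature, measured 2.14, 2.14 and 2.01 ipsilaterally, against 2.19, 2.47 and 2.05 contralaterally. Grin2b measured 3.88, 3.91 and 3.70 ipsilaterally, against 3.89, 4.37 and 3.82 contralaterally with its brighter probe set (1422223_at). The lowest value of the table was 1.40. The brighter Grin2b probe set lay just under the minimum mean of 4, and above it on contralateral array 2, while Grin2a lay further below.

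The second Grin2b probe set lay between 2.66 and 2.72 ipsilaterally and between 2.63 and 2.92 contralaterally. Grin2d, the gene of the slowly closing GluN2D, measured 1.74, 1.79 and 1.72 ipsilaterally, against 1.79, 2.05 and 1.74 contralaterally. For the brighter Grin2b probe set and for Grin2a and Grin2d the ipsilateral array was the lower one in 3 of 3 replicate numbers, and for the second Grin2b probe set in 2. How many of all dim probe sets behaved in this way was not counted, so no direction is read from it. In replicate 1 the differences were -0.051 for Grin2a, -0.0058 for Grin2b and -0.043 for Grin2d, and in replicate 2 they were -0.33, -0.46 and -0.27 in the same order of genes. Without the filter the unadjusted limma p of the 4 dim probe sets lay between 0.266 and 0.350. All 4 were highest on contralateral array 2, which held the highest value of 24.9% of all 7328 dim probe sets.

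Contralateral array 2 was the array on which the members stood furthest from the rest. Against the mean of the other 5 arrays, 6 of the 7 tested probe sets were lower there, with a median deviation of -0.31, while the median over all tested probe sets was -0.0070. Both Gria1 and both Gria2 probe sets had their lowest value on that array, 4 of the 7 tested, beside 21.4% of all tested probe sets. Ipsilateral array 3 stood at the other end, with 0 of the 7 below the mean of the other arrays and a median deviation of 0.26, against 0.017 over all tested probe sets. The same array of the contralateral side, number 3, had a median deviation of 0.23. The beta-actin control probe sets, whose 3′ minus 5′ signal reflects RNA integrity and labelling, gave 1.06 to 1.30 on the ipsilateral arrays and 0.93 on contralateral array 2, against 1.22 and 1.24 on the other contralateral arrays. The part of this measure in the receptor values was not tested.

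**Figure D3:**
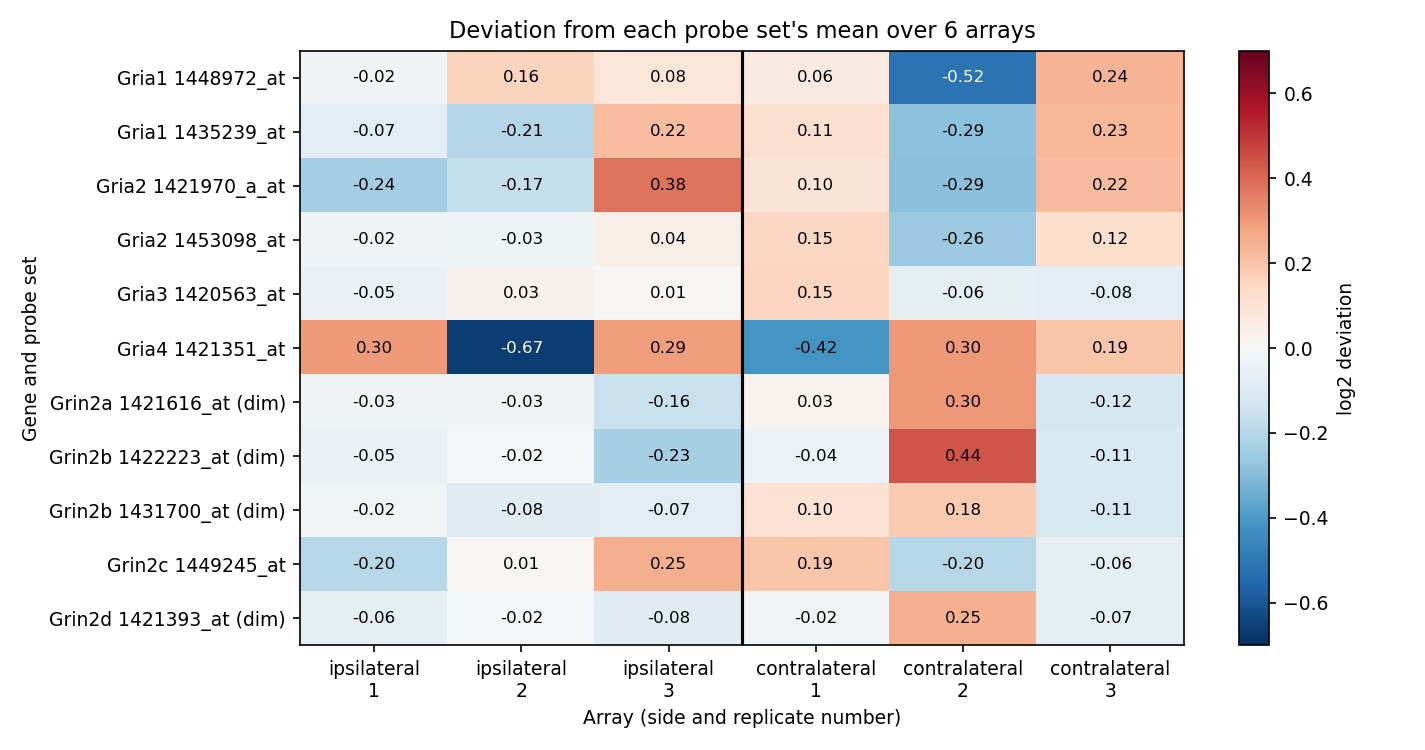
Log2 deviation of each subunit probe set (rows) from its own mean over the 6 arrays (columns, ipsilateral left of the black line). Gria1 and Gria2 are low on contralateral array 2, where Gria4 and the dim NMDA receptor probe sets are high. The tested rows show no common shift between the 2 sides. The 4 dim rows lie below their means on the 3 ipsilateral arrays and on contralateral array 3.

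The proportions of AMPA subunits were compared as log2 ratios within an array, since probe affinity cancels when the same ratio is compared between sides. The share of GluA2 among AMPA subunits bears on calcium permeability, so Gria2 was set against each of the other 3 genes by their brightest probe sets. Gria2 minus Gria1 was 2.63, 2.52 and 3.14 on the ipsilateral arrays, against 2.88, 3.07 and 2.83 on the contralateral arrays. Ipsilateral arrays 1 and 2 were below, and array 3 above, all contralateral arrays, and the mean ratio differed by -0.16 between the sides (two-sided exact permutation test, p = 0.50, n = 3 each).

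Gria2 minus Gria3 was 2.78, 2.77 and 3.35 ipsilaterally, against 2.92, 2.74 and 3.27 contralaterally, a difference of -0.0091 (exact permutation p = 1). The sides differed by at most 0.14 within a replicate number, and replicate 3 was the high one on both. Gria2 minus Gria4 was 4.84, 5.88 and 5.46 ipsilaterally, against 5.89, 4.78 and 5.41 contralaterally, a difference of 0.033 (exact permutation p = 0.80). Here the sides were in opposite order in replicates 1 and 2. Adjusted over the 3 ratios each p was 1, and the smallest two-sided p that 3 arrays against 3 allow is 0.1. The ratio of Grin2a to Grin2b was left out because neither gene was bright enough.

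Other genes of glutamatergic transmission were counted from lists of related functions, each gene by its brightest tested probe set. The kainate and delta receptor subunits, the closest relatives of the members, had 2 of 7 genes tested. Both had the higher mean on the infused side without passing the test, and both were lower there in replicate 1. Grik5, a kainate receptor subunit that binds glutamate with high affinity, measured 7.04 ± 0.15 ipsilaterally and 6.85 ± 0.14 contralaterally (SD, n = 3 each, limma, adjusted p = 1.00). Grik1 measured 5.44 ± 0.61 ipsilaterally and 5.28 ± 0.31 contralaterally. In replicates 1 to 3 the differences were -0.017, 0.31 and 0.28 for Grik5 and -0.70, 1.13 and 0.055 for Grik1. Of the metabotropic receptors only Grm8 was tested, with a difference of 0.020.

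Proteins that accompany ionotropic glutamate receptors, not AMPA receptors alone, or cluster them had 6 of 18 genes tested. Of these 3 were higher and 3 lower, with a median difference of 0.011. Cacng2, which encodes stargazin and carries AMPA receptors to the synapse, measured 8.01 ± 0.16 ipsilaterally and 7.98 ± 0.08 contralaterally (n = 3 each). Cacng5 differed by 0.21, and Nptx1, a pentraxin secreted at excitatory synapses that gathers AMPA receptors, by 0.28. Neto1 went the other way at -0.27 (SE 0.18), with -0.46, -0.052 and -0.28 in replicates 1 to 3. Among the 17 tested of 26 trafficking and postsynaptic scaffold genes, 8 were higher and 9 lower, with a median of -0.0025. Pick1, which binds the GluA2 tail and takes part in receptor removal, differed by -0.20, and Grip1, which binds the same tail and anchors the receptor, by 0.38 (SE 0.32).

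Kinases, phosphatases and editing enzymes that act on the subunits had 20 of 23 genes tested, 14 higher and 6 lower, with a median of 0.071. Adarb1, the enzyme that edits the GluA2 pore residue, measured 9.58 ± 0.10 ipsilaterally and 9.54 ± 0.23 contralaterally (n = 3 each). Ppp3ca, a catalytic subunit of calcineurin, differed by 0.25, Camk2g by 0.16 and Prkacb by 0.20. Genes that supply glutamate, glycine or D-serine had 12 of 16 tested, 4 higher and 8 lower, with a median of -0.072. Srr, the enzyme that makes the NMDA receptor co-agonist D-serine, differed by 0.24. The vesicular glutamate transporter gene Slc17a6 differed by -0.14.

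In none of these 6 lists did a gene pass an unadjusted limma p of 0.05 without the replicate block, so the adjusted count was 0 as well. With the block 1 gene did, Slc1a6, a neuronal glutamate transporter of the supply list, which differed by -0.25 and was lower on the infused side in 3 of 3 replicate numbers. Over all 15298 tested probe sets the median difference was -0.0055, and 48.2% were higher on the infused side. The immediate early genes, which neurons induce when they fire, had 4 of 8 tested genes at an unadjusted limma p under 0.05, each lower on the infused side, and 6 with the block. Fos, the member of that list with the smallest p, measured 7.51, 7.47 and 7.79 ipsilaterally, against 9.67, 9.81 and 8.82 contralaterally. Its unadjusted limma p was 2.2e-04, while the smallest among the tested receptor subunit probe sets was 0.48. Its adjusted p in limma was 1.00, like that of the receptor subunits and of all other probe sets tested.

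**Figure D4:**
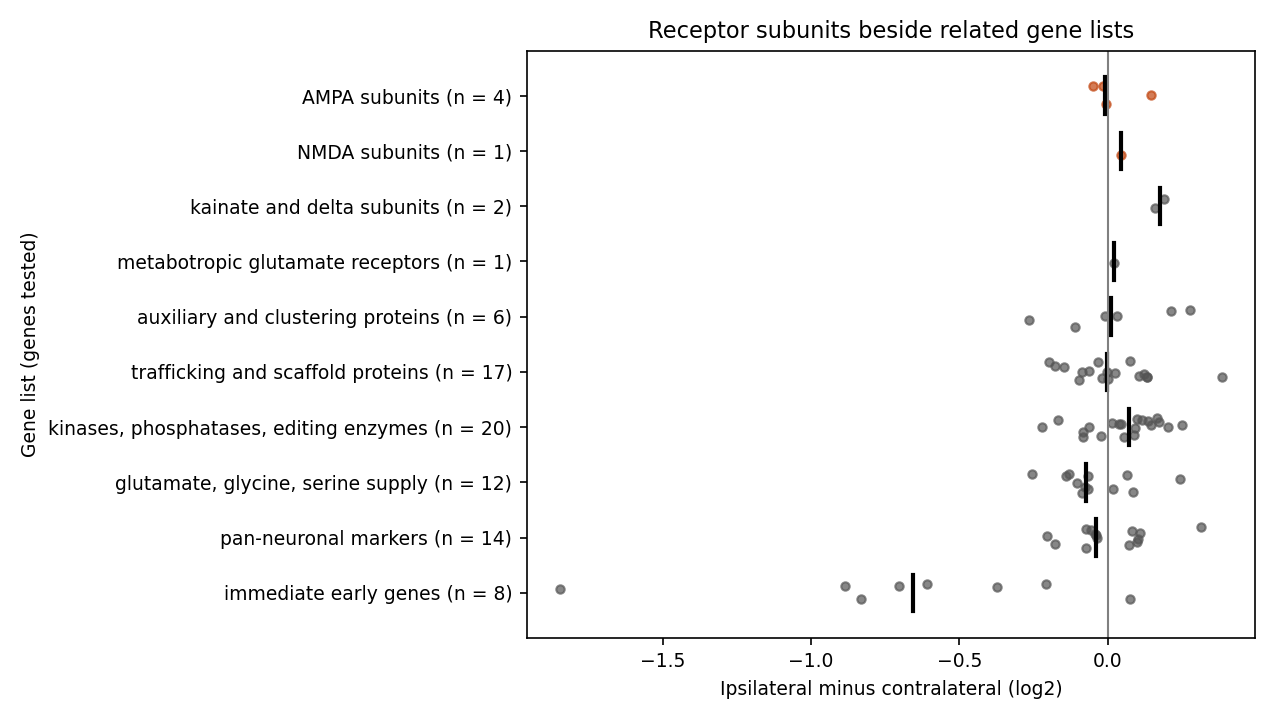
Ipsilateral minus contralateral log2 difference of each tested gene (points) in the AMPA and NMDA subunit lists, in related lists and in the immediate early genes, with a black bar at the list's median. The subunit medians (-0.010 for AMPA, 0.045 for the 1 NMDA gene) lie near 0, and the immediate early genes have a median of -0.66.

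Promoter sequence was read for the members that RefSeq's table covers, 5 of 10, and is shown for the 3 of them that were tested. The windows run from 250 bases before to 50 after an annotated start, on assembly GRCm38.p6, 5′ to 3′ on the gene's strand. For Gria2 that start lies inside the gene's annotated span (chr3:80681450-80804227). Its window therefore does not reach the 5′ end of the span, and what lies there was not searched. They are shown because immediate early genes such as Fos and Egr1 encode factors with known recognition letters. The letters searched on both strands were GGGCGG (the GC box of Sp1), TGACG (the core of the cyclic AMP response element), TGANTCA (AP-1, the site of Fos and Jun dimers) and GCGNGGGCG (EGR factors, which can overlap a GC box). Capitals mark any of these.
Gria2, chr3:80802786-80803085, minus strand: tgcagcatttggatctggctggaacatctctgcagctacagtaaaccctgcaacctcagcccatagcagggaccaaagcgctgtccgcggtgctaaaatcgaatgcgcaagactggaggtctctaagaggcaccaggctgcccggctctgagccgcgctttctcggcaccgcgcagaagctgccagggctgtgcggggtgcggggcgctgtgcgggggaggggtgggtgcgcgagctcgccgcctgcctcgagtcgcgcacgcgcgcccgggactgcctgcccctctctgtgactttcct
Gria4, chr9:4796185-4796484, minus strand: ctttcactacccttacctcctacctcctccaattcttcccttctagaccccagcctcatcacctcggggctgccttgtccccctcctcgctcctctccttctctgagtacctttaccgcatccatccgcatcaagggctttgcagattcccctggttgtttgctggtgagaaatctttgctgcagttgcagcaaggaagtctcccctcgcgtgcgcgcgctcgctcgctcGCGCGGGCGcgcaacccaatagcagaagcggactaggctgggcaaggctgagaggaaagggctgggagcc
Grin2c, chr11:115267194-115267493, minus strand: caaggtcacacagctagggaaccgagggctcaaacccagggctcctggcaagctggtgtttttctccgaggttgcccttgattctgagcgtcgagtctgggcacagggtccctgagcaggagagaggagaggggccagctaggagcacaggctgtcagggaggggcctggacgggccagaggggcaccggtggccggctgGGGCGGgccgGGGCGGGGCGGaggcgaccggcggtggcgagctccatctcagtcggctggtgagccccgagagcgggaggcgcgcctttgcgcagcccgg

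The Grin2c window held 3 GC boxes, of which 2 overlap in 1 run of capitals, the Gria4 window 1 EGR match, and the Gria2 window none of the searched letters. AP-1 and TGACG letters were in none of these 3 windows. Among 32544 RefSeq promoter windows of the same length, 35.9% held a GC box, 20.9% TGACG, 7.79% AP-1 letters and 5.6% an EGR match. The GC content was 65.7% for Gria2, 59.7% for Gria4 and 70% for Grin2c, with a median of 53% over all windows. These matches describe letters in these windows and say nothing about binding.

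The tissue and its other cell types were checked with marker lists. Neuronal markers were bright, with Snap25 at 14.60 ipsilaterally and 14.52 contralaterally and Nefl at 13.25 and 13.29 (means). Of 12 genes of cochlear nucleus identity 8 passed the minimum, 4 higher and 4 lower on the infused side. Atoh7 was bright, at 9.51 ipsilaterally and 9.55 contralaterally. The 3 of smallest p were Lhx9 at 4.92 and 5.08, Kcna1 at 11.07 and 10.94 and Hoxb2 at 5.49 and 5.64. Lhx9 was the 1 gene of these 8 whose sides did not overlap, beside 6.26% of all tested probe sets. The granule cell gene Gabra6 was bright, at 10.71 ipsilaterally and 10.64 contralaterally. Granule cells belong to the cochlear nucleus as well as to the cerebellum above it. The mean of 14 cerebellar granule and Purkinje markers was 8.79 to 9.19 on the ipsilateral arrays and 8.90 to 9.14 on the contralateral arrays, highest on array 3 of each side, as was the brighter Gria2 probe set. The mean of the 14 neuronal markers was highest on the same 2 arrays, at 10.47 ipsilaterally and 10.38 contralaterally, so this pattern was not particular to the cerebellar list. The mean of the cerebellar list joins genes that differed in opposite directions, 7 higher and 7 lower on the infused side. Calb1, a calcium-binding protein of Purkinje cells and other neurons, measured 9.70, 9.81 and 9.85 ipsilaterally, against 10.14, 10.23 and 10.44 contralaterally. Its sides did not overlap, and with a difference of -0.48 it was the 1 gene of the list at an unadjusted limma p under 0.05 (adjusted p = 1.00). With the block there were 3, as Car8 at -0.31 and Slc1a6 were added, both also known from Purkinje cells. Pcp2, a Purkinje cell gene, differed by -0.30 (SE 0.50), with -0.43, 0.32 and -0.79 in replicates 1 to 3. Pvalb of the same list went the other way, with 0.051, 0.040 and 0.0055 in replicates 1 to 3. With the list's mean level as a covariate the Gria2 difference was 0.083 (SE 0.11) and that of Grin2c 0.089 (SE 0.14).

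Microglia and macrophage markers had 10 of 13 genes tested, 9 of them higher ipsilaterally, and the median difference was 0.17. At an unadjusted limma p under 0.05 there were 3, the complement gene C1qb at 0.38, the lysosomal gene Cd68 at 0.41 and Aif1 at 0.26, each higher and each with an adjusted p of 1.00. The sides did not overlap for 4 of the 10, beside the 6.26% over all tested probe sets. The mean of the 10 markers was 7.08 to 7.18 on the ipsilateral arrays and 6.84 to 7.16 on the contralateral arrays. For genes of oligodendrocytes and myelin the ipsilateral mean was the higher one in 8 of 8 tested, with a median difference of 0.13 and none at an unadjusted limma p under 0.05. Their mean was 12.86 to 12.92 on the ipsilateral arrays and 12.66 to 12.92 on the contralateral arrays. Of the astrocyte markers 9 of 11 were higher, with a median of 0.041, and of the endothelial markers 6 of 9 were lower, with a median of -0.10. Neither list had a gene at an unadjusted limma p under 0.05, and with the block each had 1, Sox9 at 0.27 among the astrocyte markers and Kdr at -0.41 among the endothelial markers. The part of these 4 cell types in the receptor values was not tested.

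Markers of choroid plexus, the secretory tissue beside the nucleus, differed widely between arrays. The mean of 9 markers was 9.01, 4.78 and 5.01 on ipsilateral arrays 1 to 3, against 7.99, 7.74 and 7.23 on the contralateral arrays, and 9 of 9 were lower on the infused side on average, with a median of -1.60. Fitted with that level as a covariate, the differences were 0.082 for Gria1, -0.13 for Gria2, -0.018 for Gria3, 0.10 for Gria4 and -0.053 for Grin2c, and 0 of 7 probe sets passed. Without ipsilateral arrays 2 and 3, which were low in these markers, 0 of 7 passed as well, in a fit that assumes the lone ipsilateral array to vary like the others.

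Across the 6 arrays the gene most like the brighter Gria2 probe set in its pattern was Ryr2, a calcium release channel. Its Pearson correlation with that probe set was 0.992 over the arrays. Next came Fubp1 at 0.988 and Slc6a15, a transporter of neutral amino acids, at 0.987. Ryr2 measured 8.41, 8.41 and 8.76 ipsilaterally, against 8.58, 8.32 and 8.63 contralaterally, the same order of arrays as that probe set. The second Gria2 probe set, highest on contralateral array 1, had another order and was not compared in this way. The 3 were the highest of 6636 genes compared, of which 204 exceeded 0.9, and with 6 arrays such values are a description of these arrays.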

How the data were processed

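The authors deposited log2 expression values per probe set for 6 Affymetrix arrays, made with GCRMA per the submitters' processing notes, with no version or settings named. GCRMA normalizes between arrays and pulls dim probe sets toward a floor, so a change common to most genes is removed and differences of dim probe sets are uncertain. That the scale is log2 follows from the value range (1.40 to 16.0).

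Side and replicate number were taken from each sample's description. By the platform annotation 20393 of 22690 probe sets had 1 symbol, 691 several and 1606 none. Without the 64 control probe sets and the 7328 with a mean of 4 or less, 15298 were tested with limma 3.58.1 in R 4.3.3 (ipsilateral minus contralateral, Benjamini-Hochberg adjustment over all of them, 95% intervals from the moderated fit), after the script was tested on simulated data. Precision is limited by 3 arrays per side.

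Since each pool of mice was infused in 1 ear, a shared replicate number was taken to mean the same mice. Deviations from the side's mean correlated at 0.09, 0.04 and 0.57 within numbers 1, 2 and 3. Between unlike numbers the correlations ran from -0.37 to 0.30, so only number 3 stood above them. The replicate block was an alternative.

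The members and lists were chosen with earlier results of these data known. Beside the members, the text names all tested kainate subunits and a few marker genes whatever their values. From some lists, not all, it also names genes of small p, without or with the replicate block. Cacng2, Adarb1, Atoh7 and Pvalb were chosen after their values were seen. Slc17a7 had no probe set with its symbol alone, and genes like Grin1 in pattern were not sought, since Grin1 had none either.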

Additional observations from a re-analysis of the deposited data

How the results depend on the processing

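The counts of member probe sets past an adjusted or unadjusted limma p of 0.05 were 0 under each of the 23 and 22 alternatives run, the replicate block, both marker covariates, no filter, a minimum mean of 6 and an adjusted threshold of 0.1 among them. The replicate block left each difference as it was and changed no call of the members. The sign of the small differences was not stable, and no direction is claimed for them. Median centring gave 0.0015 for Gria3, array weights 0.016 for Gria4 and -0.036 for Grin2c, the choroid plexus covariate 0.10 for Gria4 and -0.053 for Grin2c, and the cerebellar covariate 0.083 for Gria2 and 0.011 for Gria4. The cause was not tested. Leaving out arrays or replicates gave -0.12 to 0.30 for Gria1, -0.24 to 0.14 for Gria2, -0.055 to 0.088 for Gria3, -0.43 to 0.41 for Gria4 and -0.18 to 0.26 for Grin2c, and -0.40 to 0.033, -0.20 to 0.14 and -0.50 to 0.58 for the ratios of Gria2 to Gria1, Gria3 and Gria4. For the ratios, the replicate block (an exact sign-flip test over 3 pairs) gave p = 0.75, 1 and 0.75. The ratio of Grin2a to Grin2b was not run because both genes were below the minimum mean. Gria4 could not be tested at a minimum mean of 6, and the dim NMDA receptor probe sets limit any statement on Grin2a, Grin2b and Grin2d.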
